A study of Rattus norvegicus with 17 samples.

Results

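The genes described here are Fos, Fosb, Fosl1 and Fosl2 of the Fos family, Junb and Jund, which are relatives of Jun, and Egr1, Egr2, Egr3 and Egr4. They are 10 of the 14218 genes that a probe set of the array names on its own. Every probe set whose only gene symbol in the array's annotation was one of these names was taken, which gave 16 of 31099 probe sets. Gene expression had been measured on 17 rat arrays, each from about 1000 spinal cord neurons that carried a retrograde label and were cut by laser from unfixed 10 µm cryosections, with RNA amplified in 3 rounds. In 7 rats (MOON265, MOON266, MM11, MM13, MM14, MM16 and MM17) axotomised neurons were collected as a regenerating and a non-regenerating sample, so these 2 groups share their animals. The remaining group, called traced, held labelled neurons of 3 other rats (MM15, MM18 and MM19) whose axons had not been cut. The labels name no transgene and no drug. The strain, sex and age of the rats, the kind of lesion and the time after it are not given in the sources used here.

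Immediate early genes are transcribed within minutes of a calcium or kinase signal, from factors already present in the cell, and their messages are short-lived. Fos proteins bind DNA mainly as pairs with a Jun protein, as the AP-1 complex. Egr proteins are zinc finger factors that bind GC-rich sites, and some of them are held back by the Nab corepressors. In the spinal cord Fos is widely used as a sign of recent neuronal activity, and AP-1 is best known in injured neurons through Jun. Junb can temper Jun, Jund is present in many resting cells, and Egr2, also called Krox20, is also known as a factor of myelinating Schwann cells.

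The deposited signals are linear array units, and tests ran on log2 of the signal plus 16. A probe set was tested if its mean log2 value reached the 40th percentile of all, a signal of about 34. Of the 10 genes, 7 had such a probe set (Fos, Fosl1, Junb, Jund, Egr1, Egr2 and Egr4, with 1 probe set each), and Fosb, Fosl2 and Egr3 did not. Over all arrays the deposited scaling gave nearly equal means, but the 4 arrays of MOON animals had medians of 32.7 to 38.9 and those of MM animals 45.1 to 76.7, and all traced animals were MM animals. The arrays of non-regenerating MM17 and traced MM15 stood apart, with a median correlation of 0.847 and 0.821 with the other arrays. They also had the lowest ratios of the 3 prime to the 5 prime Gapdh control probe set, 10 and 11.7 against 20.7 to 150 on the others. Their ratios for beta-actin, 17.9 and 11.4, lay within the range of the others. The title of traced MM15 adds that it is a high yield replicate, and what this means is not given in the sources used here. The 10 neuron markers were all bright enough to be tested, with a summed signal of 12970 or more on every array. With 3 to 7 arrays a group, precision is set by their number.

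Among the promoters, those of Egr1 and Egr2 share both kinds of element through which immediate early genes are best known to respond. Shown first is the stretch of Egr1 before its start (RefSeq, GRCr8, chr18:26736828-26737077, plus strand) and then the matching 30 bases of Egr2 (chr20:21054498-21054527, minus strand). Capitals mark CArG boxes, the element bound by serum response factor, and the letters TGACG or CGTCA on the strand shown, each a half-site of a cAMP response element.
Egr1: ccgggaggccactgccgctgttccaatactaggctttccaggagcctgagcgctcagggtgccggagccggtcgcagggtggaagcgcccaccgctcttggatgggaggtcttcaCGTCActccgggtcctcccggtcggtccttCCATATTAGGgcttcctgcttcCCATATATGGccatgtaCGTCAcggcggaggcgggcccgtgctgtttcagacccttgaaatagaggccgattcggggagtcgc
Egr2: agtCCATATATGGgcagcgaCGTCAcgggt
Both hold the letters CCATATATGG at 83 bases and CGTCA at 66 bases before the start, and Egr1 has a further CArG box at 105 bases and a further half-site at 135 bases. The starts used for Egr2 and for Fosb, whose window is not shown, lie inside their RefSeq genes and not at the outer ends. CArG boxes were found in 2 of the 8 members with a promoter in the RefSeq table, against 1.5% of all 33469 promoters of the same length. Fos and Egr3 were not in that table.

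The promoters of Junb (chr19:40080876-40081125, plus strand) and Jund (chr16:18769772-18770021, minus strand) are shown because they hold different forms of the cAMP response element, marked by the same capitals.
Junb: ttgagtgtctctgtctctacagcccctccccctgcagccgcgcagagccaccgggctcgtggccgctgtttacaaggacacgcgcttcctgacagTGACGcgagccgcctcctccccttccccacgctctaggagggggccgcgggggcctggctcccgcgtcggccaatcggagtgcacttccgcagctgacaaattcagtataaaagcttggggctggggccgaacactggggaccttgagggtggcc
Jund: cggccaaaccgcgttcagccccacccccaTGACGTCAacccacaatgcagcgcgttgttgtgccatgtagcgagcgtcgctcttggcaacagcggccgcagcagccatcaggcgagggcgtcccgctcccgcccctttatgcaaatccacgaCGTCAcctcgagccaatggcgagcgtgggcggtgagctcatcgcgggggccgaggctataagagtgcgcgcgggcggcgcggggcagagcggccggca
Jund has the full element TGACGTCA at 221 bases before the start, which 1.59% of all promoters hold on either strand, and a separate half-site at 98 bases. Junb has a single half-site at 155 bases. The half-site TGACG, which the full element contains, was present on either strand in 6 of the 8 promoters, among them Fosl1 and Egr4 with 2 each, against 18.2% of all promoters. The Egr letters GCGNGGGCG were found 3 times in Jund and at 1 position in Fosl2, and in 4.29% of all promoters, while the AP-1 letters TGANTCA were in 0 of the 8 and in 6.34% of all. Each match is a description of letters in a window and shows neither a used site nor a cause.

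None of the 7 tested genes passed a Benjamini-Hochberg adjusted p of 0.05, taken over all tested probe sets, in limma in any of the 3 comparisons. Between regenerating and non-regenerating neurons, compared within animals, 0.0161% of all 18625 tested probe sets passed, and 1 member, Egr2, had an unadjusted p under 0.05, as did 7.08% of all. Between non-regenerating and traced neurons 0.043% of all passed, and 2 members, Fos and Junb, had an unadjusted p under 0.05, against 10.3% of all. Between regenerating and traced neurons 0.215% passed, and 3 members, Fos, Egr2 and Junb, had such a p, against 23.6% of all. The last 2 comparisons share the 3 traced arrays. With all 10 genes tested and no limit on dim probe sets, 0 passed and the counts with such a p were 1, 1 and 4, against 6.19%, 10.6% and 24% of all probe sets. The median difference of all tested probe sets was 0.00 within animals and -0.12 in both comparisons with traced neurons.

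**Figure D1:**
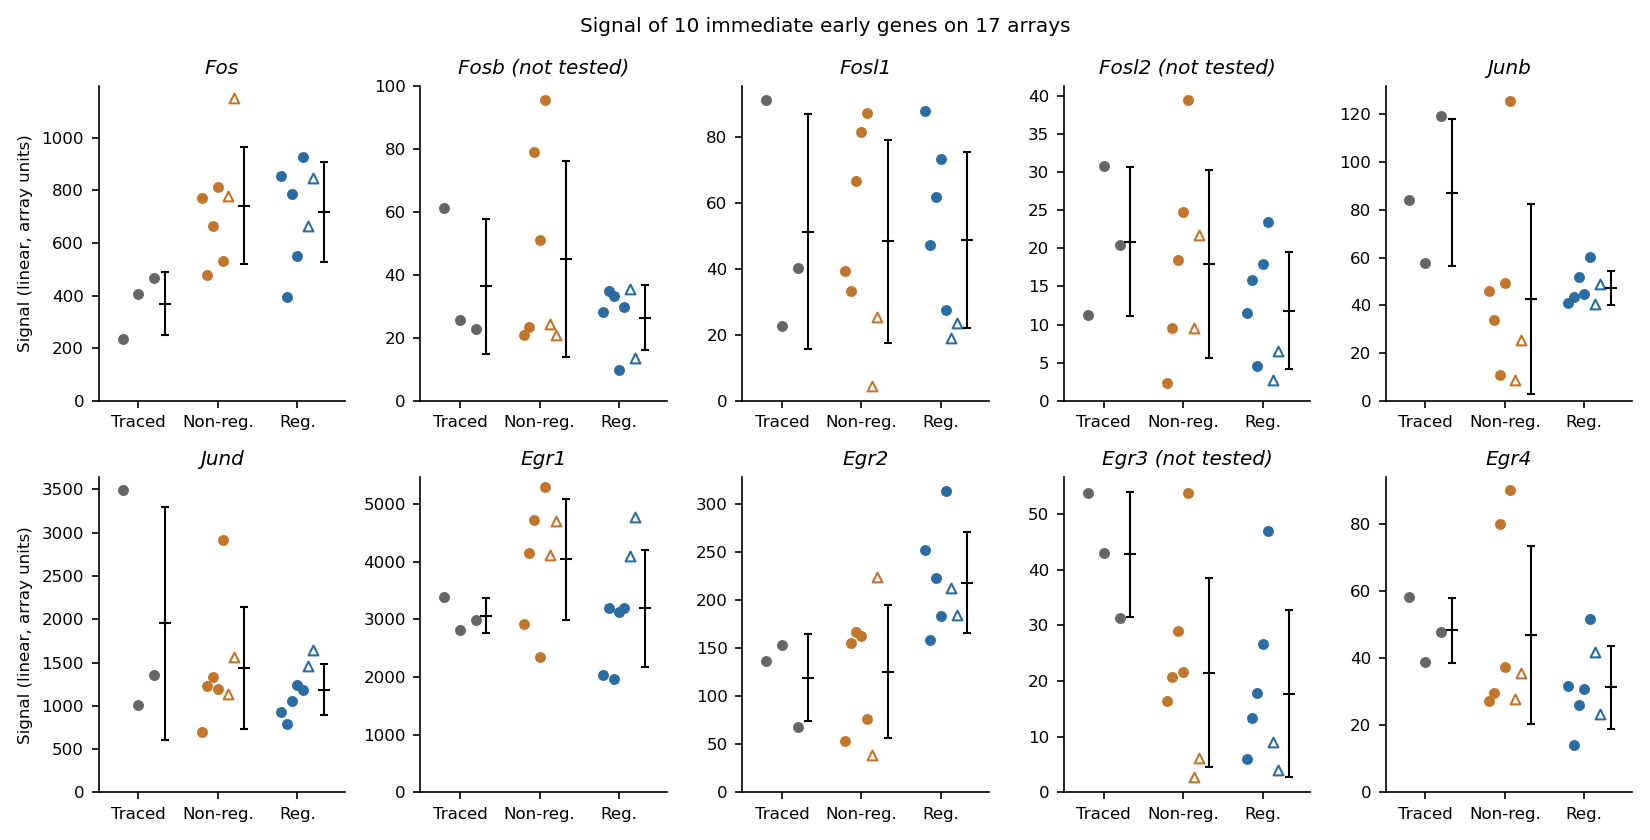
Signal (linear array units, each panel on its own axis from 0) of the 10 genes in the traced (n = 3), non-regenerating (n = 7) and regenerating (n = 7) samples, with triangles for MOON animals and bars for the mean ± SD. Fos lies between 236 and 465 in the traced samples and between 397 and 1151 in the others, and Egr2 lies at 158 or above in every regenerating sample.

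Fos, the activity-induced partner of Jun proteins (chr6:110852188-110855054), was higher on average in both axotomised groups than in traced neurons, without passing the test. Its signal was 236 in traced MM15, 408 in MM18 and 465 in MM19. In the non-regenerating samples it ran from 480 over a median of 773 to 1151. In the regenerating samples it ran from 397 over a median of 785 to 926.5. Every non-regenerating sample lay above every traced one, a separation in that direction that 1.1% of all tested probe sets had, and the regenerating samples overlapped the traced ones through MM13 alone. The non-regenerating mean was 742 ± 221 (SD, n = 7) and the traced mean 370 ± 119 (SD, n = 3), a log2 difference of 0.98 (SE 0.29, 1.97-fold, unadjusted p = 0.00401, adjusted p = 0.472 by limma). Regenerating neurons, at 718 ± 191 (SD, n = 7), differed from traced ones by 0.93 (SE 0.29, 1.91-fold, adjusted p = 0.0847 by limma). The difference was smaller without traced MM15, the lowest Fos sample and 1 of the arrays that stood apart: 0.70 for non-regenerating (adjusted p = 0.848) and 0.65 for regenerating neurons (adjusted p = 0.424). Among MM animals alone the differences were 0.82 and 0.89.

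Within animals Fos had no common direction. The log2 difference was -0.04 (SE 0.15, 95% interval -0.37 to 0.28, adjusted p = 0.959 by limma), and the regenerating sample was the higher one in 3 of 7 animals. It was 0.07 among the 5 MM animals and -0.33 among the 2 MOON animals. By their means the groups ran from non-regenerating over regenerating to traced, while the medians of the first 2 ran the other way, and these 2 did not differ beyond the spread between samples.

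Microglia and astrocyte markers moved with the same contrast, and oligodendrocyte markers did not move 1 way. All 8 tested microglia and macrophage markers of 12 had a higher value in non-regenerating than in traced neurons, where 38.8% of all probe sets did, with a median log2 difference of 1.23. The median was 1.52 for regenerating neurons, again with 8 of 8 higher, where 40.8% of all probe sets were, and C1qa, a complement component, and Laptm5, a lysosomal protein of blood cells, rose (adjusted p = 0.029 and 0.0209 by limma). They and Gfap, the intermediate filament of astrocytes, which rose by 1.33 on the log2 scale there (adjusted p = 0.026 by limma), were singled out by their test result. In that comparison 40 probe sets of all passed, and without traced MM15 only 1 did, so most of these 3 calls did not hold without that array. The summed signal of the 12 genes was 1997 to 2241 in traced, 3367 to 5910 in non-regenerating and 3329 to 6492 in regenerating samples, while Itgam, Cx3cr1, Tyrobp and C1qb were too dim to be tested. Of 9 astrocyte markers all were higher in non-regenerating than in traced neurons, with sums of 12480 to 22340 against 11400 to 12340, and 8 were higher in regenerating neurons, with sums of 12600 to 21600. Of 6 tested oligodendrocyte markers 3 were higher and 3 lower in either comparison, with medians of 0.05 and 0.11, and Olig2 was too dim. Of 6 endothelial markers 2 were higher and 4 lower in either comparison, with medians of -0.29 and -0.35. Of 10 neuron markers 3 were higher and 7 lower, with medians of -0.02 and -0.23. The median of all probe sets was -0.12 in both comparisons. In captured tissue, fewer cells of a type and less RNA per cell cannot be told apart. The part of these cells in the Fos, Junb and Egr values was not tested.

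Fosl1, which encodes the AP-1 subunit Fra-1 (chr1:212183885-212192391), had about the same mean in the 3 groups. It was 48.7 ± 26.7 (SD, n = 7) in regenerating, 48.5 ± 30.9 (SD, n = 7) in non-regenerating and 51.4 ± 35.6 (SD, n = 3) in traced samples. The samples within each group spanned a wide range, from 4.6 in non-regenerating MOON265 to 91.3 in traced MM15, and the groups overlapped throughout. Its log2 differences were 0.07 (SE 0.23) within animals, -0.11 (SE 0.48) for non-regenerating and -0.04 (SE 0.39) for regenerating against traced neurons, with 95% intervals of -0.41 to 0.55, -1.13 to 0.91 and -0.88 to 0.80.

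Fosb, whose truncated product accumulates in neurons under repeated stimulation (chr1:88082324-88089506), and Fosl2, which encodes Fra-2 (chr6:30017952-30039269), were too dim to be tested. Fosb was 61.2, 25.6 and 22.7 in traced MM15, MM18 and MM19, 20.8 to 95.8 with a median of 24.5 in non-regenerating and 9.9 to 35.6 with a median of 29.8 in regenerating samples. The non-regenerating samples of MM14, MM16 and MM17 stood at 51.2 or above, and no regenerating sample reached that level. Fosl2 was 11.3, 30.8 and 20.4 in the traced samples, 2.3 to 39.4 in the non-regenerating and 2.7 to 23.4 in the regenerating ones.

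Junb, a Jun relative that can oppose Jun at shared targets (chr19:40081126-40082910), was lower on average in both axotomised groups than in traced neurons, without passing the test. Its signal was 84.3 in traced MM15, 57.9 in MM18 and 119 in MM19. In the non-regenerating samples it ran from 8.7 over a median of 33.7 to 126. In the regenerating samples it ran from 40.4 over a median of 44.9 to 60.3. Non-regenerating MM17 was the highest of all samples, the other 6 non-regenerating samples lay below every traced one, and of the regenerating samples MM17 alone exceeded the lowest traced sample. The mean was 87.1 ± 30.8 (SD, n = 3) in traced, 42.8 ± 39.8 (SD, n = 7) in non-regenerating and 47.2 ± 7.07 (SD, n = 7) in regenerating samples. Non-regenerating neurons differed from traced ones by -1.0 on the log2 scale (SE 0.46, adjusted p = 0.472 by limma) and regenerating neurons by -0.67 (SE 0.24, adjusted p = 0.120 by limma).

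Without non-regenerating MM17 and traced MM15 the first Junb difference was -1.25 (adjusted p = 0.41), and without traced MM15 the second was -0.67 (adjusted p = 0.4). Centring each array on its median brought the second to -0.28. Within animals Junb differed by 0.33 (SE 0.24, 95% interval -0.18 to 0.84, adjusted p = 0.758 by limma), with the regenerating sample higher in 4 of 7 animals. The difference was 0.09 among MM and 0.92 among MOON animals, and it ran from 0.16 without MM14 to 0.53 without MM17. The regenerating samples varied less, with an SD of 0.16 on the log2 scale against 0.86 in the non-regenerating samples of the same animals, and this difference in spread was not tested. Non-regenerating MM14 and MOON265, at 11 and 8.7, lay below the offset of 16. The spread of the non-regenerating samples and their differences from other groups therefore depend on the offset. At an offset of 1 non-regenerating neurons differed from traced ones by -1.42.

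Jund, the Jun relative that many cells express at rest (chr16:18768093-18769771), gave a mean of 1186 ± 294 (SD, n = 7) in regenerating, 1438 ± 703 (SD, n = 7) in non-regenerating and 1952 ± 1345 (SD, n = 3) in traced samples. The traced values were 3492 in MM15, 1009 in MM18 and 1354 in MM19, and non-regenerating MM17 reached 2918. These are the arrays that stood apart, and the 15 other arrays lay between 698 and 1639. The log2 difference from traced neurons was -0.35 (SE 0.40, adjusted p = 0.742 by limma) for non-regenerating and -0.54 (SE 0.33, adjusted p = 0.352 by limma) for regenerating samples. Without those arrays it was -0.01 and -0.02. Within animals Jund differed by -0.19 (SE 0.18, adjusted p = 0.804 by limma), by -0.36 among MM and 0.21 among MOON animals, and without MM17 by -0.01.

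Egr2, a zinc finger factor of hindbrain patterning and of myelination (chr20:21050149-21055201), had the smallest p of the members within animals. In the regenerating samples its signal ran from 158 over a median of 213 to 314. In the non-regenerating samples it ran from 39 over a median of 156 to 224. It was 137 in traced MM15, 153 in MM18 and 67.7 in MM19. Every regenerating sample lay above every traced one, with 158 in regenerating MM13 next to 153 in traced MM18, and 2.35% of all tested probe sets were separated in that direction. The mean was 218 ± 52.2 (SD, n = 7) in regenerating, 125 ± 69.3 (SD, n = 7) in non-regenerating and 119 ± 45.4 (SD, n = 3) in traced samples.

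The regenerating sample had more Egr2 signal than the non-regenerating one in 6 of 7 animals, as in 7.39% of all probe sets with at least 6 animals in that direction. The log2 difference was 0.88 (SE 0.27, 1.84-fold, 95% interval 0.30 to 1.45, unadjusted p = 0.00529, adjusted p = 0.678 by limma). It was carried unevenly, with 2.06 in MOON265, 1.94 in MM11 and 1.84 in MM17, and 0.39, 0.16, 0.02 and -0.27 in MM14, MM16, MM13 and MOON266. In the first 3 animals the non-regenerating signals were 39 to 75.9, and in the other 4 they were 156 to 224. The mean difference was 0.87 among MM and 0.90 among MOON animals, and without MM17 it was 0.72.

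**Figure D2:**
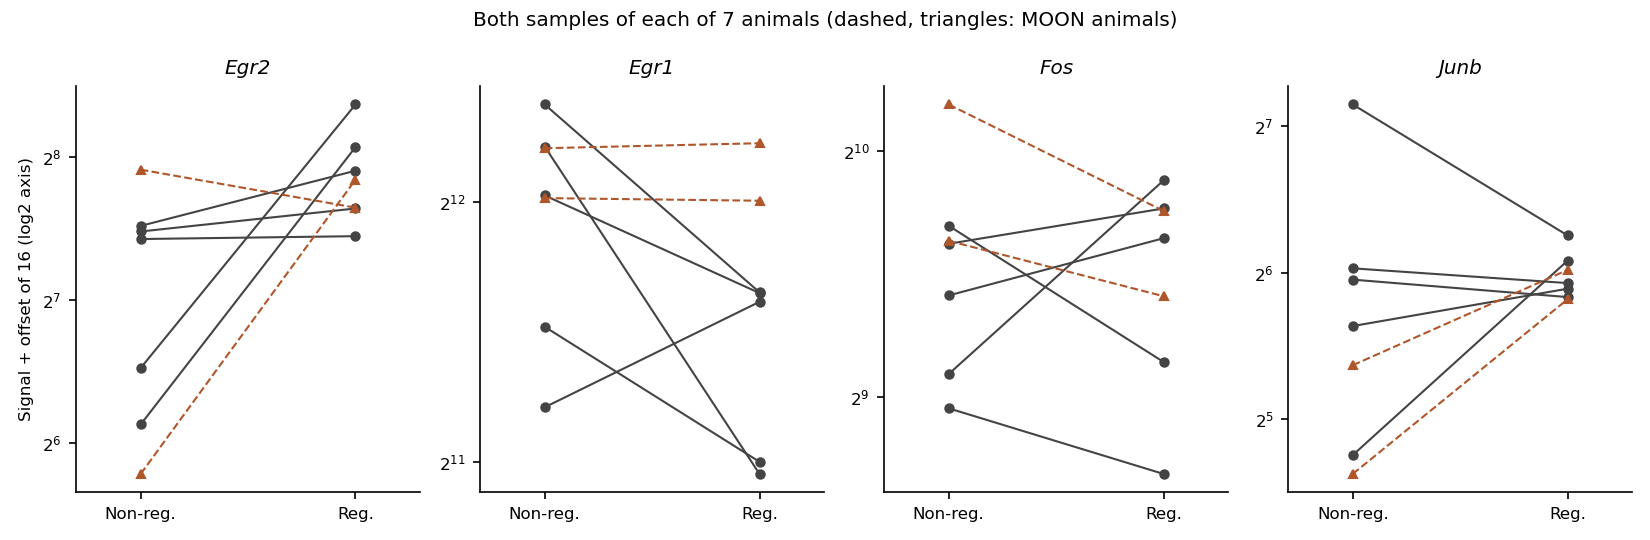
Signal plus 16 on a log2 axis in the non-regenerating and the regenerating sample of each of the 7 animals for Egr2, Egr1, Fos and Junb, 1 line per animal, dashed with triangles for the 2 MOON animals. Egr2 lines start apart and end close together and go up in 6 of 7 animals, Egr1 lines go up in 2, Fos lines in 3 and Junb lines in 4.

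Against traced neurons Egr2 differed by 0.83 in regenerating samples (SE 0.28, 1.77-fold, adjusted p = 0.102 by limma) and by -0.05 in non-regenerating ones (SE 0.45, 95% interval -1.01 to 0.91, adjusted p = 0.971 by limma). The test of the difference between these values is the comparison within animals given above. Without traced MM15 the first value was 0.95 (adjusted p = 0.388), and among MM animals alone 0.87. Without traced MM19, the lowest traced sample, it was 0.51 (adjusted p = 0.342). Averaging both Egr2 probe sets, of which the other stood at 7.3 or less on 15 of 17 arrays, gave 0.40 within animals and 0.41 against traced neurons.

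Most of the motor neuron markers moved with the same contrast as Egr2. Of 5 tested markers, 4 had a higher value in regenerating than in non-regenerating samples, where 49.8% of all probe sets did, with a median difference of 0.90, and each of these had an unadjusted p under 0.05, as 4.26% of all probe sets did in that direction, while 0 passed the adjusted test in limma. Their summed signal was 658 to 2400 in regenerating, 417 to 725 in non-regenerating and 408 to 583 in traced samples. Chat, the enzyme of acetylcholine synthesis, had means of 147, 51.0 and 41.9 in that order. Isl1, a transcription factor of motor and other neurons, differed by -0.02 within animals (SE 0.21, adjusted p = 0.987 by limma). Its means were 31, 35.6 and 99.9, so both axotomised groups lay near the limit of about 34 and the traced group above it. Its difference of -1.40 between regenerating and traced neurons (SE 0.39) is therefore a description. None of the 5 markers was too dim by its mean over all arrays. No Schwann cell marker could be tested, since Prx, which encodes periaxin of myelinating Schwann cells, was too dim, and the 4 tested genes of that list (Col1a1, Col1a2, Dcn and Lum) are fibroblast matrix genes. The part of either cell type in the Egr2 values was not tested.

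Egr1, also called Zif268, a factor that neurons induce with activity (chr18:26737078-26740877), was measured well above the limit for testing on all arrays. Its signal was 3396 in traced MM15, 2808 in MM18 and 2994 in MM19. In the non-regenerating samples it ran from 2351 over a median of 4150 to 5294. In the regenerating samples it ran from 1966 over a median of 3194 to 4772. The traced samples lay inside the range of both other groups, so the groups overlapped. The means were 3066 ± 300.4 (SD, n = 3), 4039 ± 1051 (SD, n = 7) and 3197 ± 1014 (SD, n = 7).

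Within animals Egr1 differed by -0.35 (SE 0.17, 95% interval -0.72 to 0.02, unadjusted p = 0.0593, adjusted p = 0.697 by limma), and the regenerating sample was higher in 2 of 7 animals. The difference was -1.26 in MM14, -0.72 in MM17, -0.52 in MM11 and -0.38 in MM13, against 0.41 in MM16, and it was -0.01 and 0.02 in MOON265 and MOON266. The mean was thus -0.50 among MM and 0.00 among MOON animals, and without MM14 it was -0.20 (adjusted p = 0.979). Non-regenerating neurons differed from traced ones by 0.35 (SE 0.26, adjusted p = 0.593 by limma), and regenerating neurons by 0.00 (SE 0.27, 95% interval -0.58 to 0.58).

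Egr4, an activity-induced Egr factor (chr4:119605358-119607817), lay near the limit for testing, at 31.3 ± 12.4 (SD, n = 7) in regenerating, 46.8 ± 26.5 (SD, n = 7) in non-regenerating and 48.3 ± 9.66 (SD, n = 3) in traced samples. Non-regenerating MM14 and MM17, at 80 and 90, were the highest samples and the groups overlapped. The log2 difference was -0.36 within animals (SE 0.20, adjusted p = 0.714 by limma), -0.50 among MM and 0.00 among MOON animals. It ranged from -1.19 in MM14 to 0.40 in MOON265, and without MM14 the mean was -0.22 (adjusted p = 0.979). Against traced neurons it was -0.12 (SE 0.34) in non-regenerating and -0.47 (SE 0.27, adjusted p = 0.301 by limma) in regenerating samples, and centring each array on its median brought the last value to -0.08.

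Egr3, an activity-induced factor that muscle spindles need (chr15:51560482-51565778), was too dim to be tested. Its signal was 53.8 in traced MM15, 43.0 in MM18 and 31.3 in MM19. It ran from 2.7 over a median of 20.8 to 53.8 in non-regenerating and from 4.1 over a median of 13.3 to 47 in regenerating samples. All traced samples stood above the median of either other group, and the 4 MOON samples, none of them traced, stood at 9.1 or less. In a fit without the limit on dim probe sets the difference from traced neurons was -0.75 (SE 0.37, unadjusted p = 0.0621 by limma) in non-regenerating and -0.89 (SE 0.33, unadjusted p = 0.0173 by limma) in regenerating samples.

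**Figure D3:**
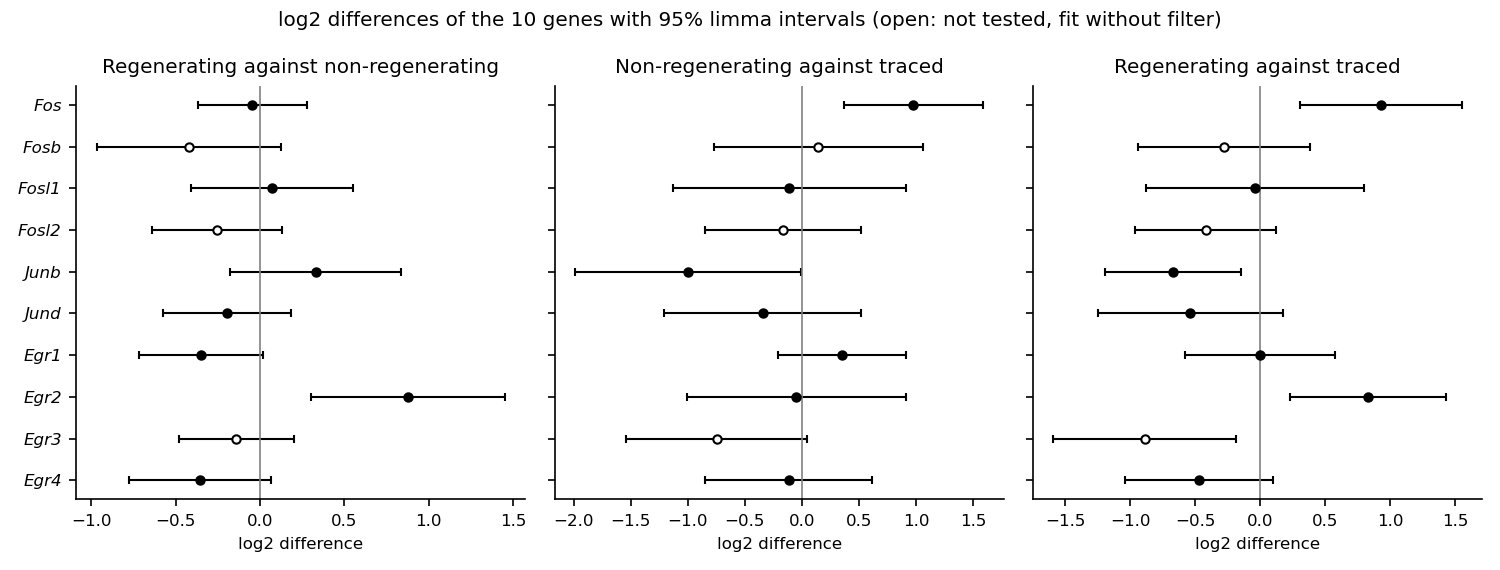
Differences on the log2(signal + 16) scale with 95% limma intervals for the 10 genes in the 3 comparisons, each on its own axis, with open points for the 3 genes too dim to be tested. Against traced neurons Fos lies at 0.98 and 0.93 and Junb at -1.0 and -0.67, and within animals Egr2 lies at 0.88.

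The members did not vary as 1 block. Over the 17 arrays, with the means of MM and MOON arrays removed, the 21 pairs of tested members had Pearson correlations from -0.48 (Fos with Jund) to 0.70 (Jund with Egr4). Leaving out the 2 arrays farthest from the median changed these to -0.11 and 0.60. Egr1 and Egr2 had a correlation of -0.23, and Fos and Junb one of -0.29. Without the 2 farthest arrays these were 0.007 and -0.25, and with the group means also removed from all 17 arrays 0.02 and -0.02. The points share animals and array scaling, so these values are a description.

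Of all named genes, those most like each member were ranked by the same correlation over 17 arrays, and their high values follow from that ranking. Egr1 was closest to Fkbp1a, an immunophilin (0.95), Tram1, a protein of the secretory translocon (0.94), and Kpna3, an importin (0.93). Jund was closest to Prox1, a homeobox factor (0.96), Cadm1, a cell adhesion molecule (0.95), and Gigyf2 (0.95), and fell to 0.78 to 0.82 with these genes without the 2 farthest arrays. Fos was closest to Cabcoco1 (0.88), Pprc1, a transcriptional coactivator (0.88), and Hspa2, a chaperone (0.88). Junb was closest to Cbfa2t3, a corepressor (0.88), Spon2 (0.86) and Hs3st2, a heparan sulfate sulfotransferase (0.84). Egr2 was closest to Sertad2 (0.79), Ppp1r36 (0.75) and Tkfc (0.74), Egr4 to Zfp410 (0.87), Meltf (0.86) and Zfp438 (0.86), and Fosl1 to Eif4e3 (0.82), Cpne3 (0.80) and Xiap (0.79). No member was among the 3 genes most like another member.

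Genes that act beside, before and after these factors were taken as 5 lists, and 0 of their tested genes passed in limma in any comparison. Of the AP-1 partners and related factors, 7 of 13 were tested, with a median difference of 0.20 within animals. Jun, the main AP-1 partner of Fos, differed by 0.40 (SE 0.13, adjusted p = 0.678 by limma) within animals, by 0.11 between non-regenerating and traced neurons and by 0.50 (SE 0.25, adjusted p = 0.242 by limma) between regenerating and traced neurons. Atf3, an injury-induced factor that pairs with Jun, differed from traced neurons by 2.32 in non-regenerating samples (adjusted p = 0.203 by limma). In regenerating samples it differed by 2.51 (adjusted p = 0.0684 by limma), and these were the largest values in the lists. After centring arrays on their medians the latter was 2.90 (adjusted p = 0.0458 by limma). That setting also moved the median of all probe sets there from -0.125 to 0.264.

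Of the kinases and factors upstream, 18 of 26 were tested, and 3 had a higher and 3 a lower value with an unadjusted p under 0.05 in regenerating against traced neurons. Such a p was reached by 5.98% and 17.6% of all probe sets in those directions. Crem, a cAMP-responsive factor, differed by 1.10 (SE 0.30, adjusted p = 0.0704 by limma) there. With arrays centred on their medians it was 1.49 (adjusted p = 0.0401 by limma), where the median of all probe sets was 0.264. Within animals Crem differed by 0.58 (SE 0.18, adjusted p = 0.678 by limma). In regenerating against traced neurons, Srf, which binds the CArG boxes, differed by -0.74 and Camk2a, a calcium-activated kinase, by -1.15 (adjusted p = 0.0921 and 0.0936 by limma). Rps6ka3, a kinase that phosphorylates Creb1, differed there by 0.84 (adjusted p = 0.119 by limma). Elk3, a partner of Srf, differed by 0.55, and Mapk9, which encodes a Jun kinase, by -0.52.

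Of the brakes on these signals, 8 of 10 were tested. Of them 7 were lower in non-regenerating and 6 in regenerating than in traced neurons, with medians of -0.42 and -0.45 beside -0.12 over all probe sets. Only 38.8% and 40.8% of all tested probe sets were higher in these comparisons, so most probe sets were lower there as well. Sik1, a kinase that restrains Creb coactivators, differed by -0.79 and -0.98 (adjusted p = 0.472 and 0.0684 by limma), and Dusp5, a phosphatase of Erk, by -0.74 in regenerating neurons. Nab2, a corepressor of some Egr proteins, differed by -0.43 and -0.54 (adjusted p = 0.581 and 0.205 by limma). Nab1, its relative, differed by -0.40 and -0.37, and Dusp1, a phosphatase of MAP kinases, by 0.59 and 0.55. With arrays centred on their medians, 5 and 4 of the 8 were lower, with list medians of -0.06 and -0.07 beside 0.24 and 0.26 over all probe sets. After quantile normalization 6 were lower in each, with medians of -0.10 and -0.18 beside 0.01 and 0.01.

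Of the other immediate early genes, 15 of 27 were tested, and 10, among them Arc and Myc, were on the array and too dim. The orphan nuclear receptors Nr4a1, Nr4a2 and Nr4a3 had lower values in both axotomised groups than in traced neurons, by -0.92, -0.68 and -0.82 in non-regenerating (adjusted p = 0.472, 0.478 and 0.472 by limma) and by -1.03, -0.67 and -0.69 in regenerating samples (adjusted p = 0.0772, 0.167 and 0.197 by limma). Klf10, a zinc finger repressor, differed by 0.79 (SE 0.31, adjusted p = 0.678 by limma) within animals. The 3 receptors stayed lower with arrays centred on their medians, at -0.56, -0.32 and -0.46 and at -0.65, -0.28 and -0.30. The list medians, -0.17 and -0.15, were near the -0.12 of all probe sets.

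Of the later targets, 9 of 16 were tested. Gal, which encodes the neuropeptide galanin, differed from traced neurons by 0.86 in non-regenerating and 0.97 in regenerating samples (adjusted p = 0.472 and 0.0903 by limma), Cd44, an adhesion receptor, by 0.84 in non-regenerating samples, and Hmox1, which encodes heme oxygenase, by -0.87 in regenerating ones. Within animals Ptgs2, an inducible cyclooxygenase, differed by -0.62 (SE 0.17, unadjusted p = 0.00205, adjusted p = 0.541 by limma). Its means were 26.9 in regenerating and 49.2 in non-regenerating samples, the first of them below the limit for testing of about 34. Penk, the enkephalin precursor, differed within animals by -0.32 (SE 0.11, adjusted p = 0.678 by limma).

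**Figure D4:**
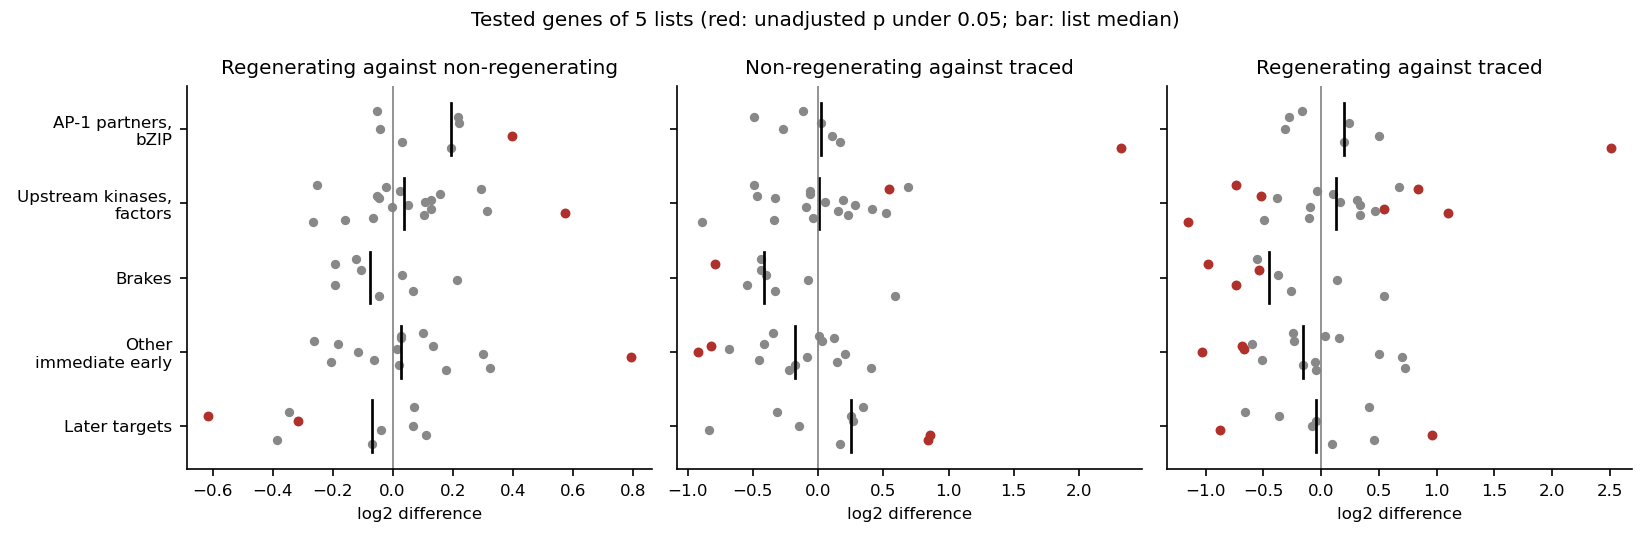
Differences on the log2(signal + 16) scale of each tested gene of the 5 lists in the 3 comparisons, each on its own axis, with list medians as bars and red for an unadjusted p under 0.05. Atf3 stands at 2.32 and 2.51 against traced neurons, and the medians of the brakes stand at -0.42 and -0.45.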

How the data were processed

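Arrays were grouped, and regenerating and non-regenerating samples paired by animal, from the titles. The authors deposited linear signal intensities per probe set, made with GCOS (per the submitters' processing notes; its version and settings are not given in the sources used here), 1 array per sample. No 2 arrays were identical, and the deposited scaling was kept. Genes came from the platform annotation, which can be old: 20832 probe sets had 1 symbol, 436 several and 9831 none, and RefSeq numbers matched 20764 of the first and changed 0 symbols.

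Differences were tested on log2(signal + 16), where 16 is the 25th percentile of all signals, with lmFit and trended eBayes of limma 3.58.1 (R 4.3.3). The 57 control and 12417 dim probe sets (mean log2 below its 40th percentile, a signal of about 34) were left out. The comparison within animals had the animal as a replicate block, and the others used the 2 groups compared. Deviations from group means correlated between samples of an animal with r = 0.345 to 0.709 over probe sets (0.131 to 0.552 with prefix means removed). P-values were adjusted by Benjamini-Hochberg over all tested probe sets, with a threshold of 0.05, and each gene was read at its brightest probe set. The fit was also run on simulated data with independent noise and no animal effect, which cannot test the handling of the pairing.

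Named are the members, the 3 genes most like each, and of each list per comparison up to 3 genes in each direction with the smallest p; The marker genes and Nab1 against traced neurons were added with their values known. The members and lists were chosen with earlier results of these data known. Alternatives changed the normalization, offset, filter, prior, weights, block, samples, probe set averaging and 3 prime bias. Promoters of 250 bases before the start came from the RefSeq table (GRCr8). Python 3.11.15, pandas 2.3.3 and matplotlib 3.10.9 made the promoter scan and figures.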

Additional observations from a re-analysis of the deposited data

Results flagged for a closer look

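Among 42 sets of samples examined, 4 held a sample far from the others, and chance alone marks about 1 in 20 such sets. All belong to second probe sets of Jund and Egr2 that were too dim to be tested. At 1 of the Jund probe sets, regenerating MM16 read 19.7 with the next sample at 4.4, and non-regenerating MM17 read 7.6 with the next at 3.3. At the Egr2 probe set, regenerating MM17 read 23.1 with the next sample at 3, and non-regenerating MM17 read 31.6 with the next at 3.7. Both samples of animal MM17 thus stood out at that probe set.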

How the results depend on the processing

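The number of members past the threshold was 0 in every setting run for the comparison within animals, in all fits that left out 1 animal or array (0 to 0), and in all but 3 settings against traced neurons. With array weights 2 members passed for non-regenerating neurons, Fos (0.60, adjusted p = 0.046) and Junb (-1.30, adjusted p = 0.0185), and 2 for regenerating neurons, Junb (-0.79, adjusted p = 0.0237) and Egr2 (0.997, adjusted p = 0.0158). With each array centred on its median 1 passed, Egr2 in regenerating neurons (1.22, adjusted p = 0.0419). In that setting the median difference of all probe sets was 0.264, and 3792 were higher at an unadjusted p under 0.05 by limma. Array weights raised the count over all probe sets from 8 to 2440 and from 40 to 3131. Without the replicate block, 0 members and 0 probe sets passed, against 3 with it, and 217 probe sets had an unadjusted p under 0.05.

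The count over all probe sets for regenerating against traced neurons was 1504 without regenerating MM17, 1 without traced MM15, 859 at an offset of 64 and 212 after quantile normalization, and for non-regenerating against traced neurons it was 2 to 37 with 1 array left out. Median centring moved the median of all probe sets to 0.24 and 0.26 and turned the split of higher and lower values at an unadjusted p under 0.05 from 499 and 1417 to 1436 and 553 (non-regenerating) and from 1113 and 3274 to 3792 and 1326 (regenerating). Quantile normalization gave 983 and 891, and 2044 and 2261. The cause was not tested.

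Fos stayed positive against traced neurons in 24 of 24 other settings in either comparison (0.46 to 1.34 and 0.43 to 1.32), Junb stayed negative in 23 of 23 (-1.42 to -0.55 and -0.89 to -0.28), and Egr2 within animals stayed positive in 22 of 22 (0.40 to 1.07). Egr1 in regenerating against traced neurons changed sign in 12 of 24, but its main difference was 0.00, so its sign carries no information. Fosl1 there stood at 1.03 with the ratio of the 3 prime and 5 prime Gapdh control probe sets, a measure of RNA quality, as a covariate. Within animals Egr1, Egr4 and Jund changed sign among MOON animals alone, Egr1 and Egr4 only to 0.00 and Jund to 0.21. Signals near the offset limit Fosb, Fosl2, Egr3 and every second probe set. They also limit Junb in the non-regenerating samples, and single samples of Fosl1 and Egr4 lay below the offset as well.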

Other observations

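Fos, Fosl2, Egr2 and Egr4 each had a second probe set and Jund had 2, and all were too dim to be tested. The second Fos probe set read 1 to 6.3 on the 17 arrays, with means of 3.26 in regenerating, 3.37 in non-regenerating and 4.17 in traced samples. The second Egr4 probe set had means of 9.49, 9.90 and 15.6 in the same order, with the highest value, 29.7, in traced MM19. The values of Fos and Egr2 given above therefore rest on 1 probe set each.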
